A study of Mus musculus with 2 samples.

Results

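The genes described here are 42 genes of the extracellular matrix and of hepatic stellate cells, listed by symbol, of which 40 were measured among 18193 named genes. A gene was measured when at least 1 probe set of the array was annotated with its symbol alone. For 2 listed genes, Fbn1 and Loxl2, no such probe set was used. The study compared livers of female wild-type C57BL/6 mice, 8 weeks old, whose kidneys had undergone 30 min of warm bilateral ischemia and reperfusion, with livers of mice of the same kind after sham surgery. The kidney operation causes acute kidney injury (AKI), and livers of both groups were collected 24 h after surgery. In each group the frozen livers of 3 mice went into 1 pool and 1 Affymetrix array, so neither group has a replicate. No test between the groups could be made, and the spread between mice is unknown. The words higher and lower describe these 2 pools, and their number limits the precision. In a pool of whole liver, fewer cells of a type and less RNA per cell cannot be told apart.

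The extracellular matrix of the liver consists of fibrillar collagens around portal tracts and vessels, a thin basement membrane of collagen IV, laminin and nidogen, and glycoproteins and proteoglycans between them. In a healthy liver, stellate cells in the space between hepatocytes and sinusoids store vitamin A. On injury they can turn into contractile myofibroblasts, which express alpha smooth muscle actin and lay down fibrillar collagen under the influence of transforming growth factor beta. Matrix is broken down by metalloproteinases, which the tissue inhibitors of metalloproteinases (TIMPs) hold in check.

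Values are signal intensities as deposited, on a linear scale. The median signal over all probe sets that are no array controls was 225.7 (sham) and 231.8 (AKI). Differences are log2(signal + 71.8) in the AKI pool minus the same in the sham pool, so that a difference of 1 is 2-fold. The added 71.8 understates the differences of weak signals. Fold thresholds refer to this scale, unless a ratio of signals is named. A gene with several probe sets is described by its leading probe set, the one whose mean signal over the 2 arrays is highest. This choice favours a probe set that is high on 1 array, so other probe sets that differ in sign or size are given for the genes the results turn on, and the plot by role shows all those of the 40 genes. They are the only repeat measurement, and their differences had an SD within genes of 0.68 over 9010 genes and of 0.70 over the 31 matrix and stellate cell genes with 2 or more probe sets.

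Most of the 40 genes differed little between the pools. Within 1.5-fold were 29 of them (72.5%), against 59.9% of all named genes. The median difference was 0.12, with quartiles of -0.31 and 0.45, beside a median of 0.00 and quartiles of -0.46 and 0.43 over all named genes. At least 2-fold higher in the AKI pool were 5 genes, Nid1, Col4a1, Adamts1, Des and Timp3. That is 12.5% of the 40, against 9.49% of all named genes. At least 2-fold lower were 2 genes, Lrat and Ngfr, which is 5% against 10.6%. The share of the genes past 2-fold was thus near the background in the upward direction and below it in the downward direction. Past 4-fold were Nid1, Col4a1 and Adamts1, all higher, and 1.61% of all named genes were at least 4-fold higher. On at least 1 array 37 genes had a signal at or above the array median. Lamb1, Mmp13 and Pdgfrb were below it on both.

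**Figure D1:**
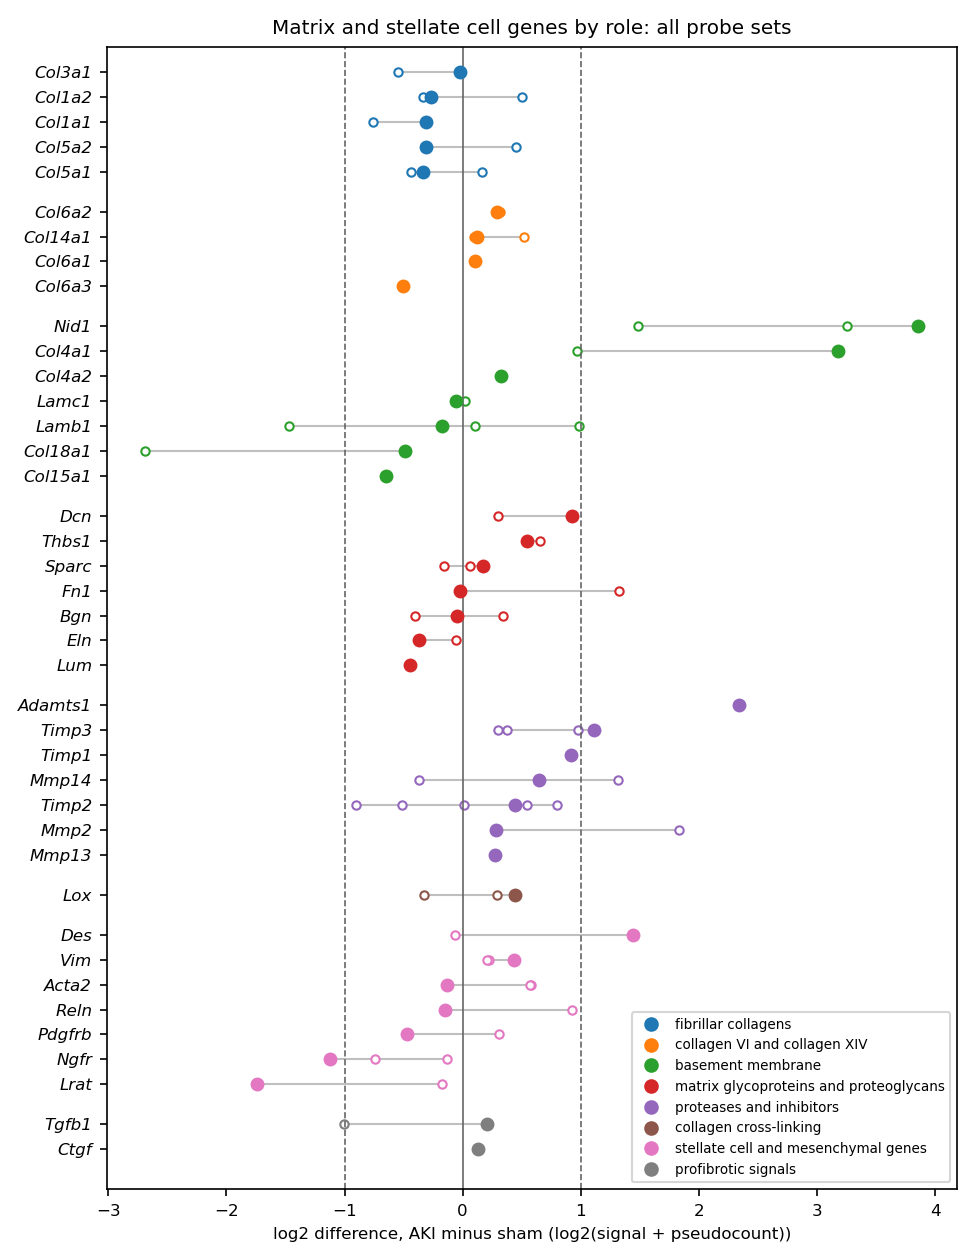
Log2 difference, AKI minus sham, of the 40 measured genes (rows, coloured by role). A filled point is the leading probe set (highest mean signal), open points are the other probe sets of the gene, the grey line spans them, and dashed lines mark a 2-fold difference. Most filled points lie between the dashed lines, and Nid1 is the gene whose 3 probe sets all lie beyond the upper one.

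Of the probe sets, 10 of 90 were higher by 2-fold or more and 5 lower, against 9.56% and 9.96% of all probe sets named by 1 gene. Among the 31 genes with several probe sets, all pointed the same way for 15 (48.4%), against 45.7% over all genes with several. Nid1 was the only one of the 31 with every probe set at least 2-fold higher, which held for 1.89% of all genes with several probe sets, and none had every probe set at least 2-fold lower, against 2.14%.

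The basement membrane genes held the 2 largest differences of the list. Nid1 encodes nidogen-1, which links the laminin and collagen IV networks. Its leading probe set read 250.1 (sham) and 4594.6 (AKI), a ratio of 18.4 and a log2 difference of 3.86. The other probe sets of Nid1 read 28.8 and 885.3 (3.25), and 20.3 and 185.5 (1.48), in the same order of groups, which is kept below. All 3 were therefore low in the sham pool and higher in the AKI pool, although the size differed by more than the SD between probe sets. Nid2, which encodes the second nidogen, was weak, with signals of 7.4 and 107.6 and a difference of 1.18.

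Col4a1 and Col4a2 encode the chains that wind together into the main collagen IV of basement membranes. Col4a1 read 629.7 and 6292.2, which is a log2 difference of 3.18. Its other probe set, annotated with the same sequence record, read 1136.1 and 2291.4, a difference of 0.97. Both were higher in the AKI pool, and they differed in size by more than the SD between probe sets. The only probe set of Col4a2 read 787.3 and 1003.6, a difference of 0.32, which is within that SD of 0. The genes lie head to head in the genome, and in the RefSeq promoter table of assembly GRCm38.p6 their start sites are 21 bases apart. By these start sites the first bases of both genes overlap. In the same assembly 3 more pairs of the listed genes are direct neighbours among protein-coding genes. These are Col3a1 with Col5a2 (-0.02 and -0.31), Col6a2 with Col6a1 (0.29 and 0.11), and Dcn with Lum (0.92 and -0.45).

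The laminin chain genes of the list, Lamc1 and Lamb1, were within 2-fold. Lamc1 read 677.3 and 646.6 (-0.06). Lamb1 was weak, at 141.9 and 117.0 (-0.18), and its 4 probe sets spanned -1.47 to 0.99. Col15a1, a collagen of the basement membrane zone, read 292.7 and 160.6 (-0.65). Col18a1 encodes collagen XVIII, whose end fragment is endostatin and which hepatocytes make as well. Its probe sets disagreed in size. The leading one read 13585.7 and 9643.0 (-0.49), while the other read 13818.7 and 2088.2 (-2.68). Both were lower in the AKI pool. The RefSeq promoter table lists 2 start sites for Col18a1, and which transcripts each probe set reports was not tested.

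The upstream sequences of 3 of the genes at least 2-fold higher, Nid1, Adamts1 and Timp3, are shown because all probe sets of these genes were higher in the AKI pool. Col4a1, for which this also held, is left out because its window lies just inside Col4a2, past the start site of that gene. They are the 250 bases before the start, 5′ to 3′ on the strand of the gene, from the RefSeq promoter table of GRCm38.p6. Capitals mark a match to any motif searched. Nid1 lies at chr13:13437352-13437601 on the plus strand, Adamts1 at chr16:85803114-85803363 on the minus strand and Timp3 at chr10:86300162-86300411 on the plus strand.
Nid1: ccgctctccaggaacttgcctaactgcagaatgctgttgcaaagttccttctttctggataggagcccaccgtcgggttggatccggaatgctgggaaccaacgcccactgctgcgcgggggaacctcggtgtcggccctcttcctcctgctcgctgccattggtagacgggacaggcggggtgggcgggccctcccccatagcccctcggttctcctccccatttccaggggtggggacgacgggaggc
Adamts1: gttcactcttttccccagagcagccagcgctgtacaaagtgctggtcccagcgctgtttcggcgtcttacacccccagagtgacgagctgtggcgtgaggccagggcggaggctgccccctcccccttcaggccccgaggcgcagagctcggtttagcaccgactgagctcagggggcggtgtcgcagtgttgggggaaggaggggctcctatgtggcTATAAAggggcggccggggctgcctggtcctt
Timp3: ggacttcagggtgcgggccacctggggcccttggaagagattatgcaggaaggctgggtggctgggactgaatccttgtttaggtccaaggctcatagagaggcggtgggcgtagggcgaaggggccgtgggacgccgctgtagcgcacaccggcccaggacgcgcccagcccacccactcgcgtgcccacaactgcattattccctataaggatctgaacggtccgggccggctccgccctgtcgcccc
Searched on both strands were AP-1 (TGANTCA), the cyclic AMP response element (TGACGTCA), the EGR site (GCGNGGGCG), the TATA box (TATAAA) and the CArG box by its name. No match overlapped a match to a different motif. In these 3 windows the only match was the TATA box of Adamts1, at 32 to 27 bases before the start. Promoters in the table covered 28 of the 42 genes with 30 windows. A TATA box was in 4 of the 30 (13.3%) and in 12.4% of all 32851 windows, and AP-1 in 2 (6.67%) and 6.75%. The EGR site was in 4 (13.3%) and 4.7%, the response element in 0 and 1.55%, and the CArG box in 0 and 1.47%. The EGR site is rich in G and C, and the median share of these bases was 62.0% in the 30 windows, against 52.4% over all windows. Whether this bears on the share with an EGR site was not tested. The windows with an EGR site belonged to Lamb1, Mmp14, Reln and Tgfb1, none of them past 2-fold by its leading probe set. These are matches of letters in a short window and say nothing of binding.

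Fibrillar collagen genes, whose products form the fibres of scar tissue, were all within 1.5-fold by their leading probe sets. All 5 were slightly below 0, from -0.33 to -0.02, with a median of -0.31. With the arrays centred on hybridization controls the median was -0.01 and 2 of the 5 were above 0, and in the average over probe sets Col5a2 was at 0.07, so the sign of this group depends on the scaling and on the choice of probe set. Col1a1 read 315.0 and 240.4 (-0.31). Col1a2 had 1600.1 and 1320.2 (-0.26), with another probe set at 0.50. Col3a1 had 466.1 and 458.6 (-0.02), Col5a1 629.2 and 485.3 (-0.33), and Col5a2 343.4 and 262.6 (-0.31). Other probe sets of Col5a1 were at -0.44 and 0.17, and that of Col5a2 was at 0.45. The weaker probe set of Col1a1 read 84.6 and 20.8 (-0.76), that of Col3a1 was at -0.55, and the weakest of Col1a2 was at -0.33. No probe set of these 5 genes was past 2-fold. The 3 collagen VI genes, whose chains form beaded filaments, lay at 0.29 for Col6a2, 0.11 for Col6a1 and -0.50 for Col6a3. Col14a1, a collagen on the surface of fibrils, was at 0.12.

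Genes of matrix glycoproteins and proteoglycans were also within 2-fold. The largest difference was that of Dcn, which encodes decorin, a small proteoglycan that binds collagen fibrils. It read 7724.9 and 14722.2 (0.92), and its other probe set was at 0.30. Thbs1, the gene of thrombospondin-1, which can activate latent transforming growth factor beta, read 241.2 and 384.8 (0.54), with its other probe set at 0.65. Fn1, the gene of fibronectin, which hepatocytes secrete into plasma, read 42061.0 and 41384.2 (-0.02). A weaker probe set of Fn1 read 645.4 and 1722.6 (1.32). Sparc was at 0.17, Bgn at -0.05, Eln, the gene of elastin, at -0.37 and Lum, the gene of lumican, at -0.45. The median of these 7 genes was -0.02.

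Genes of proteases and their inhibitors lay on the higher side. All 7 were above 0, from 0.28 to 2.34, with a median of 0.65, beside a median of 0.00 over all named genes. Each of the 7 stayed above 0 under the 5 other scalings tried, at the lowest 0.04 with the arrays centred on reference genes. Below 0 were 2 of the 6 probe sets of Timp2 and 1 of the 3 of Mmp14. Averaged over its probe sets, Timp2 was at 0.06. Adamts1, which encodes a secreted metalloproteinase that cleaves proteoglycans such as versican, read 309.6 and 1860.5, a ratio of 6.01 and a log2 difference of 2.34. It has 1 probe set, so no repeat measurement exists.

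The 3 TIMP genes of the list were higher by their leading probe sets, Timp3 by the largest amount. Timp3, whose product binds to the matrix, read 730.6 and 1659.0 (1.11). Its other 3 probe sets were at 0.98, 0.37 and 0.30, so all 4 were higher in the AKI pool and 1 was past 2-fold. With the arrays centred on reference genes Timp3 was at 0.87. Timp1 read 410.3 and 839.6, a ratio of 2.05 and a difference of 0.92, from 1 probe set. Timp2 read 581.5 and 817.8 (0.45), and its 6 probe sets ran from -0.90 to 0.80, on both sides of 0.

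Among the metalloproteinases, Mmp14, which sits in the cell membrane and activates Mmp2, read 1292.8 and 2062.1 (0.65), with other probe sets at -0.37 and 1.32. Mmp2, a gelatinase, read 792.4 and 976.1 (0.28), and a weaker probe set read 79.9 and 466.6 (1.83). Averaged over its probe sets, Mmp2 was at 1.05, past 2-fold. Mmp13, a collagenase, was weak, with signals of 61.9 and 90.3 (0.28). Lox, which encodes the enzyme that cross-links collagen and elastin, read 246.3 and 361.6 (0.45), and its probe sets ran from -0.33 to 0.45.

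**Figure D2:**
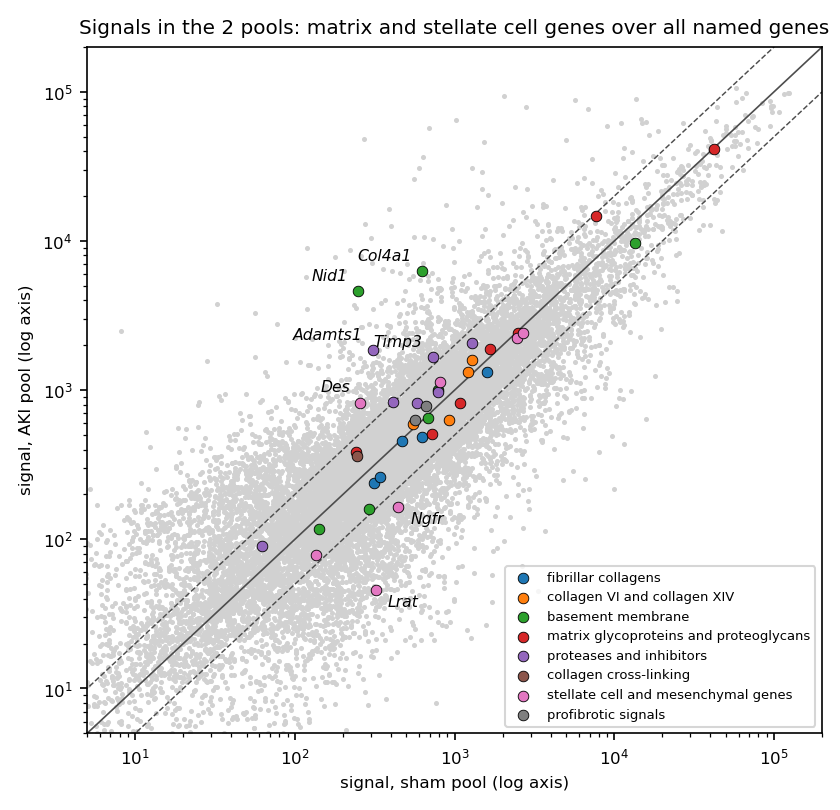
Signal in the AKI pool (vertical, log axis) against signal in the sham pool (horizontal, log axis) for all named genes (grey) and the 40 genes of the list (coloured by role), without the added 71.8; genes with a signal under 5 lie outside the axes. The solid line marks equal signals and the dashed lines a ratio of 2, and the named points are the 7 genes past 2-fold on the log2(signal + 71.8) scale.

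Stellate cell genes went in different directions. Lrat encodes the enzyme that esterifies retinol for storage and is a marker of quiescent stellate cells. Its leading probe set read 320.1 and 45.5 (-1.74). The other one, which is annotated with a RefSeq transcript, read 134.5 and 111.0 (-0.17). Ngfr, the gene of a low affinity neurotrophin receptor found on stellate cells, read 442.6 and 164.8 (-1.12), and its other probe sets were at -0.74 and -0.13. All probe sets of both genes were lower in the AKI pool, and in each gene 1 of them was past 2-fold.

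Des, the gene of the intermediate filament desmin, went the other way on 1 of 2 probe sets. The leading one read 257.2 and 823.0 (1.44), and the other, annotated with the same sequence record, read 504.3 and 479.7 (-0.06). The 2 probe sets thus disagree on whether Des differed. Averaged over its probe sets, Des was at 0.69, Timp3 at 0.69, Ngfr at -0.66 and Lrat at -0.96, each within 2-fold. Nid1 at 2.86 and Col4a1 at 2.07 were past 4-fold in this average.

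Acta2, the gene of alpha smooth muscle actin, which marks myofibroblasts, read 2453.6 and 2238.1 (-0.13). Its 2 other probe sets, both weak, were at 0.58 and 0.57. Reln, which encodes the glycoprotein reelin, made by stellate cells, read 2685.6 and 2413.8 (-0.15), while its other probe set read 152.4 and 353.3 (0.92), so the probe sets disagree in direction. Pdgfrb, the receptor of platelet-derived growth factor on stellate cells, was weak, at 136.4 and 78.1 (-0.47), with its other probe set at 0.31. Vim, the gene of vimentin, read 815.2 and 1126.8 (0.43), with all 3 of its probe sets above 0. None of these 4 genes was past 2-fold on any probe set.

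**Figure D3:**
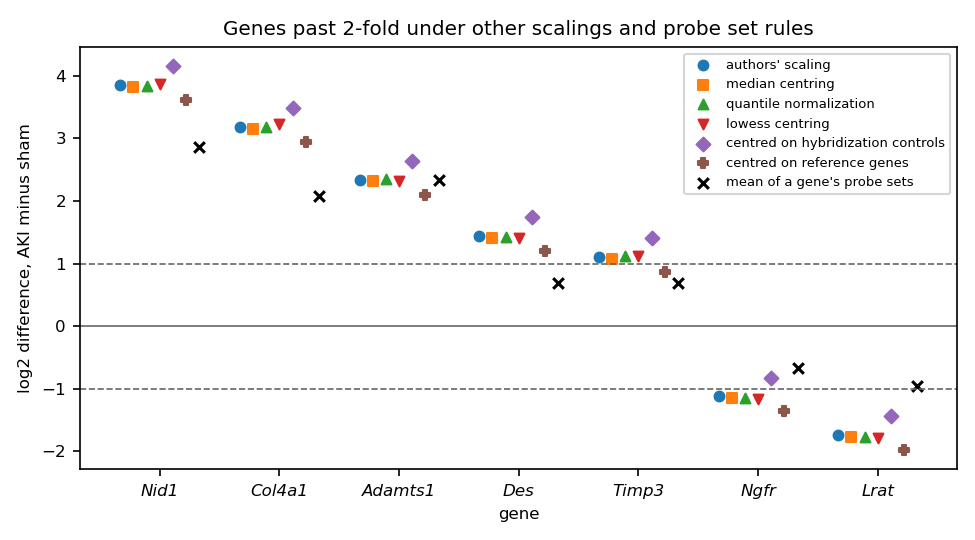
Log2 difference, AKI minus sham, of the 7 genes past 2-fold with the authors' scaling, under 5 other scalings and averaged over all probe sets of a gene (cross). Dashed lines mark a 2-fold difference. Nid1, Col4a1 and Adamts1 lie above 2 in all 7 settings drawn, and the crosses of Des, Timp3, Ngfr and Lrat lie between the dashed lines.

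The profibrotic signals of the list were within 2-fold by their leading probe set. Tgfb1, the gene of transforming growth factor beta 1, read 667.0 and 780.8 (0.21). A probe set annotated with a RefSeq transcript of Tgfb1 read 902.9 and 414.8, which is 2.18-fold lower in the AKI pool. The probe sets disagree in direction, so no direction can be given for Tgfb1. Ctgf, which encodes a matricellular growth factor induced by this cytokine, read 568.9 and 631.1 (0.13).

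Other genes of the same pathways were taken from 9 lists, with 97 different genes measured. Of these 15 (15.5%) were at least 2-fold higher, against 9.49% of all named genes, and 8 (8.25%) at least 2-fold lower, against 10.6%. Their median was 0.09. In the signalling of transforming growth factor beta, 3 of 15 genes were higher past 2-fold and 2 lower, with a median of 0.37. Tgif1, a repressor of SMAD target genes, read 202.4 and 2874.7 (3.43) on its 1 probe set. Tgfbr2, the ligand-binding receptor, read 910.2 and 2906.0 (1.60), with a probe set at 0.37. Eng was at -1.25 with its other probe set at 0.73, and the weak genes Tgfb3 and Ltbp1 were at -1.10 and 1.06. Smad7, which is induced by the pathway and inhibits it, was at -0.39.

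For platelet-derived growth factor, Pdgfra and Pdgfd were at least 2-fold higher among 5 genes and none was lower. Pdgfra, a receptor found on fibroblasts and stellate cells, read 124.1 and 527.0 (1.61), and its 3 probe sets were all past 2-fold. Pdgfd was weak, at 28.4 and 141.0 (1.09), and its 3 probe sets ran from -0.36 to 1.09, so no direction can be given for it. Collagen synthesis and processing genes had 0 of 14 at least 2-fold higher and 1 lower, the lysyl hydroxylase gene Plod2 (-1.01), whose other probe set was at -0.10. These counts go by leading probe sets, and the other probe set of Plod1 (-0.54) was at 1.06. The median of the 14 was -0.21. Serpinh1, the gene of the collagen chaperone HSP47, was at -0.20.

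Among 9 other basement membrane genes, Nid2 was higher, and the proteoglycan genes Hspg2 (-1.69) and Agrn (-1.12) were lower, with their other probe sets at 0.07 and 0.05. The median of the 9 was 0.03. Thus the differences of Nid1 and Col4a1 stood beside laminin genes that were all within 2-fold by their leading probe sets. The list of 6 other proteoglycans, which also holds Hspg2, had Prelp (-1.22) lower, with its other probe set at -0.24. None of the 6 was at least 2-fold higher by its leading probe set. Fmod was at -0.46 by that probe set, but another of its probe sets was at 1.42. In the matricellular list 2 of 12 were higher, Mgp (1.44) and Nov (1.05), and Cyr61 was at -0.71.

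Other proteases and inhibitors had 5 of 13 genes at least 2-fold higher and 2 lower, with a median of 0.29. Plaur, the urokinase receptor gene, read 384.5 and 1406.5 (1.70). Timp4 was at 1.58, the aggrecanase gene Adamts4 at 1.54, the tissue plasminogen activator gene Plat at 1.31 and Mmp9 at 1.13. Other probe sets of Timp4, Adamts4 and Mmp9 were within 2-fold, at 0.34, 0.77 and 0.33, and that of Plat was at -0.71. Plau (-1.30) and Mmp19 (-1.01) were lower, each below the array median in both pools, and the other probe set of Plau was at 0.10. Of 14 matrix receptor genes, Sdc4, the gene of syndecan-4, read 16496.8 and 51154.2 (1.63), with its other probe set at 1.84. The weak Itgb3 was at 1.01, and none of the 14 was at least 2-fold lower by its leading probe set. Other probe sets were lower past 2-fold for Itgb5 (-2.61), Dag1 (-1.37) and Ddr2 (-1.15), and 1 of Sdc1 was higher (1.15). Averaged over probe sets, 1 of the 14 was at least 2-fold higher and 2 lower. None of 10 contractile and actin genes was past 2-fold by its leading probe set. Their median was 0.14, with 7 above 0 and 3 below. Another probe set of Tpm1 was more than 4-fold lower in the AKI pool, while its leading one was slightly above 0, so its probe sets disagree. Myl9 was at -0.91, Tagln at -0.68 and Flna at 0.67.

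**Figure D4:**
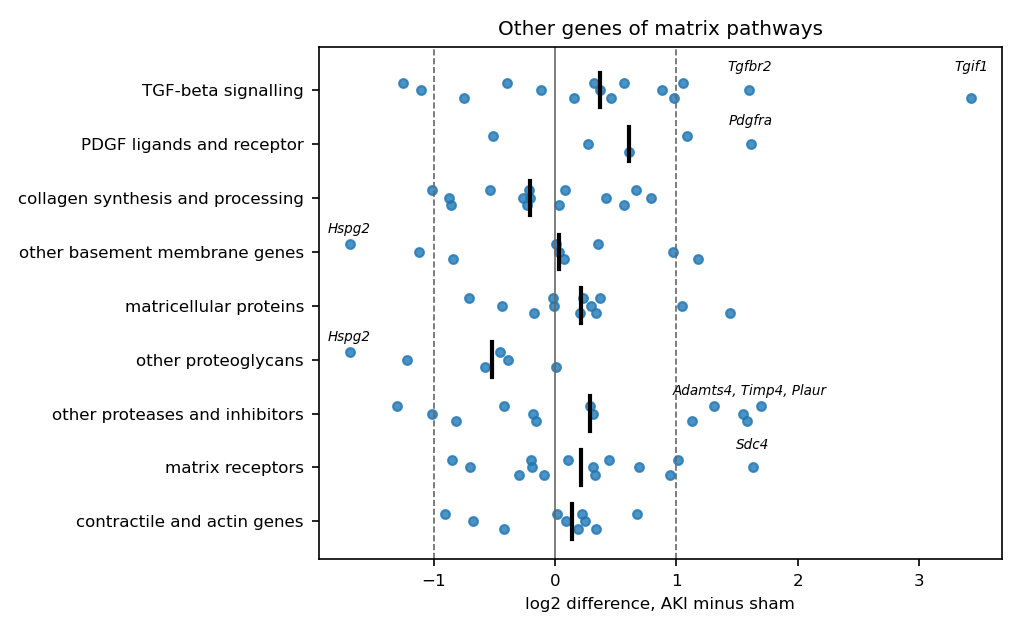
Log2 difference, AKI minus sham, of the genes in 9 lists of matrix pathways (rows); each point is a gene, black bars are list medians and dashed lines mark a 2-fold difference. Genes at 1.5 or more from 0 are named. List medians lie between -0.52 and 0.61, and Tgif1 is the farthest point, at 3.43.

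Markers of the cells that make matrix did not move together. Of 11 further markers of quiescent stellate cells, 3 were at least 2-fold higher, Lhx2 (1.42), Nes (1.41) and Hgf (1.21), and none lower by its leading probe set. Lhx2 was below the array median in both pools, and other probe sets of Nes and Hgf were as low as -0.08 and 0.48. Their median was 0.14 and their summed signal 11784.3 and 13644.2. Ecm1 (0.14), Rgs5 (-0.10) and Colec11 (-0.57) were within 2-fold by their leading probe sets, but the other probe set of Colec11 was at -2.23. Gfap was at -0.74, with a probe set at 0.26. Portal fibroblast markers had a median of -0.01 over 8 genes and a summed signal of 2317.5 and 2484.3, with Dpt (1.13) higher. Smooth muscle markers had a median of -0.00 over 5 genes and mesothelial markers one of 0.13 over 5, with none past 2-fold.

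Markers of other cell types moved in part. Here too the counts stand beside 9.49% of all named genes at least 2-fold higher and 10.6% lower. Endothelial cells also make collagen IV and nidogen. Of their 12 markers Lyve1 (2.71) was higher and Clec4g (-2.08), Tie1 (-1.56) and Stab1 (-1.55) were lower, with a summed signal of 14287.6 and 11666.5. Macrophage and Kupffer cell markers had a median of -0.54 over 10 genes, with Marco (1.46) higher and Clec4f (-1.37), Cd5l (-1.24) and C1qa (-1.01) lower, and a summed signal of 16054.7 and 10040.3. Neutrophil markers had 3 of 8 higher, S100a8 (3.17), S100a9 (2.72) and Ngp (1.12), and a summed signal of 3354.6 and 7982.9. Cxcr2 (-0.34) and Mpo (-0.03) were not higher. Of 5 cholangiocyte markers Sox9 (2.58) was higher, while Krt19 was at 0.23. None of the 5 T cell, 4 B cell, 3 erythroid and 7 hepatocyte markers was past 2-fold. The hepatocyte median was -0.34, and Alb read 124515.9 and 98303.4. The part of these cell types in the differences of Nid1, Col4a1, Adamts1 and Timp3 was not tested.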

How the data were processed

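The deposited table holds 1 linear signal intensity for each probe set and array. Software and genome build are not given in the sources used here. The authors had scaled both arrays, since the mean after leaving out 2% of probe sets at each end was 500.00 on each. Total RNA was extracted with Trizol from 100 mg of liver, and 8 ug of it was made into biotinylated cRNA, per the labels' protocols. Of 45101 probe sets, 64 are array controls, 34945 have 1 gene symbol in the platform annotation, 932 several and 9160 none. The 42 genes, the pathway and marker lists and the rules were chosen with earlier results of these data known. No level filter was set, so that every measured gene is counted. The pseudocount, 71.8, is the 25th percentile of the table. Named are all genes past 2-fold among the 42 genes, the pathway lists and the marker lists, and some genes within 2-fold. The pathway and marker genes named therefore lean toward large differences. Alternatives were other scalings (median, quantile, lowess with fraction 0.3, 18 hybridization controls, 10 reference genes), level filters, pseudocounts, probe set rules and fold thresholds. The computation was tested on simulated data. Python 3.11.15, numpy 2.4.6, pandas 2.3.3, statsmodels 0.14.6 and matplotlib 3.10.9 were used.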

Additional observations from a re-analysis of the deposited data

How the results depend on the processing

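With 1 array per group no replicate could be left out. No paired analysis was possible because each group is 1 pool on 1 array. The median over all named genes, 0.00 with the authors' scaling, was 0.30 when the arrays were centred on hybridization controls and -0.24 when they were centred on the reference genes, and the median of the listed genes moved with it from 0.12 to 0.41 and -0.12. Under these centrings 15.8% and 6.23% of all genes were at least 2-fold higher and 6.6% and 15.7% at least 2-fold lower, and of the listed genes 7 and 4 were higher and 1 and 2 lower. The median was 0.28 without the probe sets marked _s_at, _x_at and _a_at, which can hybridize to more than 1 transcript. The count of higher genes was 8 at 1.5-fold and 3 at 4-fold, and otherwise between 4 and 7. The count of lower genes was 2, but 1 with centring on hybridization controls, with a filter on mean signal, with the table median of 228.7 as pseudocount or with the average over probe sets, 0 at 4-fold, and 3 at 1.5-fold or without the marked probe sets. In the average over probe sets the lower gene was Col18a1 (-1.59), in place of Lrat and Ngfr, and the higher genes were Nid1, Col4a1, Adamts1 and Mmp2 (1.05), without Des and Timp3. Of 431 single values under 11 alternatives, 418 lay within the SD between probe sets of the reported value, and no gene past 2-fold changed sign. This count says little of robustness. A level filter leaves the value of a gene as it was, and a probe set rule cannot move a gene with 1 probe set. The 13 other values all came from the pseudocounts and the probe set rules. Nid1, Col4a1 and Adamts1 stayed at least 2-fold higher in each of the 11 alternatives, between 1.96 and 4.19. Signals below the array median limit what can be said of Lamb1, Mmp13 and Pdgfrb, weak in both pools, and of Lrat, weak in the AKI pool.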
